A study of Drosophila melanogaster with 7 samples.

Results

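The genes described here are 38 neuropeptide receptor genes of Drosophila melanogaster, taken as a list of symbols and matched to the gene names of the deposited tables. All 38 were found among 17493 genes, and each had at least 1 transcript in a kept cell. No measured value of these samples entered the rule. It holds G protein-coupled receptors for peptide hormones and neuromodulators, grouped here by the family of their ligand.

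The tissue was the brain of wild type CS (Canton-S) larvae late in the first instar, dissected free of the ventral nerve cord and dissociated into single cells. Starved larvae had been moved to 2% agar at 11 h after larval hatching by the labels (the methods give another hour) and kept there for 4 h before dissection, whereas normal larvae stayed on food. Droplet sequencing marked every transcript with the barcode of its cell and with a random tag, the UMI, by which amplified copies of a molecule are collapsed to 1 count. The 7 libraries (3 starvation, 4 normal) come from 2 starvation experiments (A, B) and 3 normal experiments (A, B, C). These 5 experiments are the replicates below, and values by replicate always follow the letters.

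Neuropeptides are cut from larger precursors, released away from or at synapses, and act through receptors on cells that can lie far from the source. Most of their receptors have 7 membrane spans and signal through G proteins to cyclic AMP or calcium. In larvae such signals link food intake, hormone release and growth to neurons of the brain, among them the insulin-producing cells, which secrete insulin-like peptides.

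Of 9353 barcodes, 8696 cells passed the filters, 4347 from starvation and 4349 from normal brains. Total UMIs per replicate ranged between 5359444 and 40988696. Barcodes were shared between libraries of different experiments: 218 to 262 for each pairing of a Starvation A with a Normal B library, where at most 3.22 were expected at random. Of the kept cells, 1094 had a barcode for which another library held more than 3 times their UMIs. They made up 7.37% of the Starvation A cells and 36.0% of the Normal B cells. Normal A stood apart because 50.9% of its cells fell into clusters that could not be named, against 6.58% to 16.4% of the other replicates. Levels and fits were therefore computed with and without the cells of shared barcodes, and fits also without Normal A.

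Cells were clustered without the 38 genes and named by fixed markers. The classes were neurons (3844 cells, split by leading transmitter gene), peptide-rich neurons (264), Kenyon cells of the mushroom body (249), undifferentiated neurons (812), neural progenitors (942), optic lobe epithelium (187), glia (585) and small groups of ring gland, blood and muscle cells left on the tissue. Another 1568 cells stayed unnamed. A level is given in CPM, the UMIs of the gene among 1000000 UMIs of the class in a replicate, as mean ± SD over replicates with at least 10 cells of the class. The 3' tags count molecules whatever the gene's length, so levels of different genes are set side by side without a correction for length. How fully the tags of each gene were captured was not measured, so an order of genes is an order of counted UMIs. Such a level cannot tell fewer expressing cells from less RNA per cell. Differences between classes are descriptions without a test, because the classes were made from the same cells.

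Neuropeptide receptor transcripts belonged mainly to differentiated neurons. The mean level was higher in neurons than in glia for 36 of the 38 genes, and for 30 of them every neuronal replicate lay above every glial replicate. For these counts, and for those by highest class below, the share over all genes was not computed, so they have no background to be judged against. Summed over all 38, receptor transcripts made up 1440 ± 192 CPM in neurons, 773 ± 53.7 in Kenyon cells, 403 ± 134 in undifferentiated neurons, 289 ± 58.6 in glia and 114 ± 82.8 in neural progenitors (n = 4 for Kenyon cells and undifferentiated neurons, of which Normal C had too few, and n = 5 for the others). The muscle cells held 514 ± 128 (n = 4), above undifferentiated neurons, and the unnamed cells 610 ± 571 (n = 5), with 1597 in Normal A. The class with the highest mean was a neuronal one for 34 genes: the peptide-rich neurons for 8, the VGlut-led (glutamatergic) and the Vmat-led (monoaminergic) neurons for 7 each, the Gad1-led (GABAergic) and the VAChT-led (cholinergic) neurons for 4 each, the Kenyon cells for 3 and the undifferentiated neurons for 1. This count includes AkhR, AstC-R1, PK1-R and Lgr1, whose 9 to 54 UMIs over all cells are too few to place them. The exceptions were Dh44-R2 and Proc-R, highest in cortex glia, CrzR in surface glia and AstA-R2 in muscle. Only named classes with at least 2 replicates were ranked, which left out the corpora allata of the ring gland. By the level pooled over replicates, their cluster (24 cells, 18 with a shared barcode) was the highest of all 41 clusters for 2 receptor genes. The receptor sum there was 265 CPM in Normal B, the only replicate with enough cells. It was 84.5 ± 27.2 in the prothoracic gland (n = 2). Only for hec did the replicates of the highest class not overlap those of the next.

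**Figure D1:**
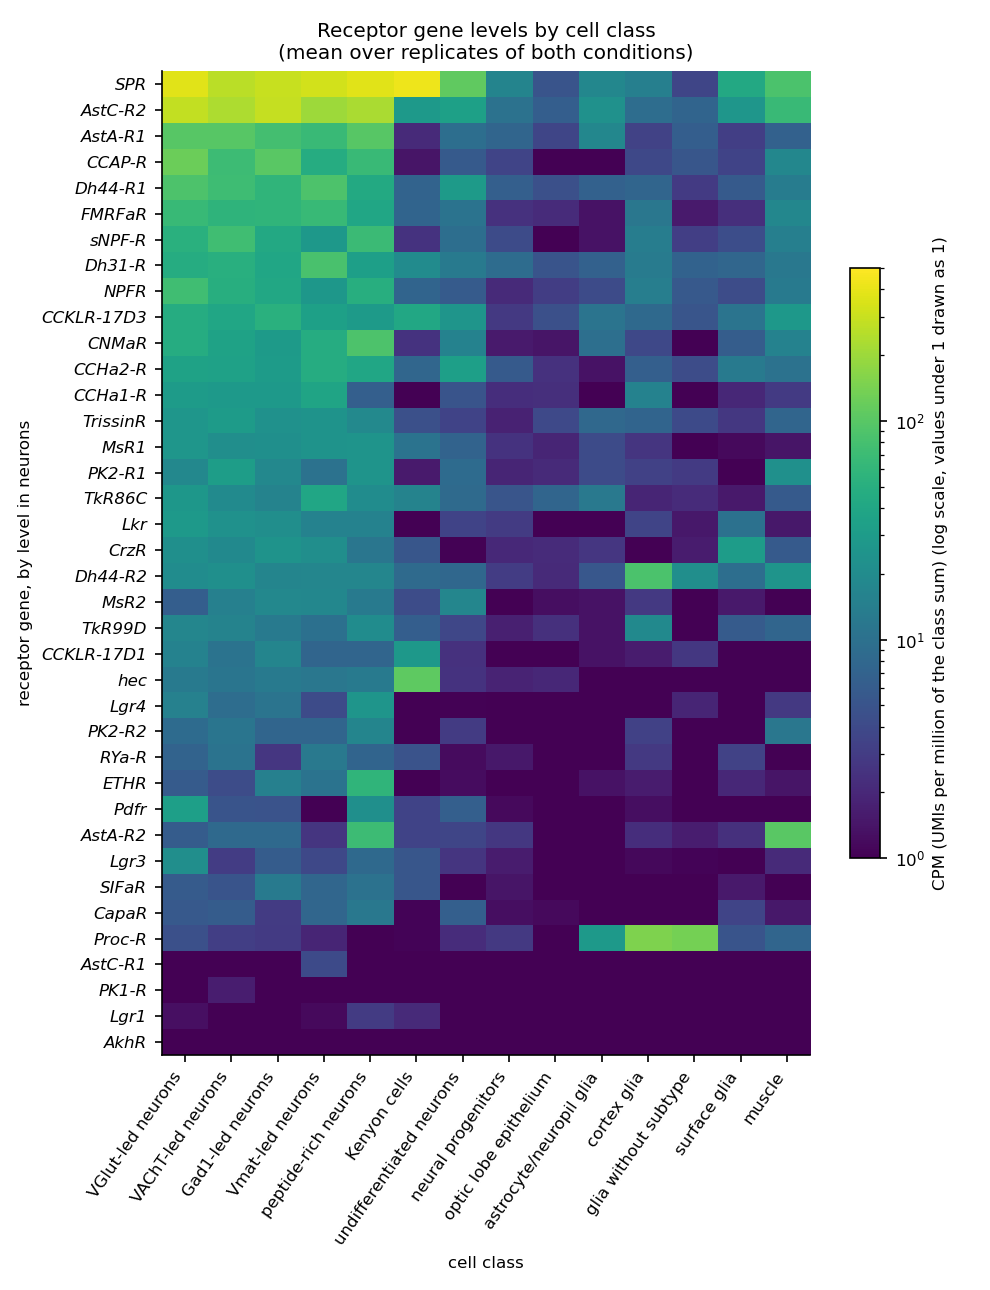
Mean level of each receptor gene (rows, ordered by level in neurons) in each cell class (columns), as CPM of the class sum on a logarithmic colour scale, averaged over the replicates of both conditions. The neuronal columns on the left are bright for most rows, and Dh44-R2 and Proc-R stand out in the column of cortex glia.

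The most abundant receptor transcript in neurons was that of SPR, the sex peptide receptor, which also binds myoinhibitory peptides. SPR (X:5446656-5494012, plus strand, BDGP6 annotation) was at 285 and 327 CPM in neurons of starvation replicates, and at 338, 308 and 209 in those of normal replicates. Starvation values lay inside the normal range. The mean over all replicates was 294 ± 51.2 (n = 5), and 49.97% of neurons had at least 1 SPR UMI. The level was higher still in Kenyon cells, at 424 ± 85.5 (n = 4), and in VGlut-led neurons, at 382 ± 48.6 (n = 5), whereas undifferentiated neurons held 111 ± 49.5, glia 16.4 ± 7.22 and optic lobe epithelium 5.01 ± 1.89. SPR is overlapped on its strand by an annotated transposon insertion, and reads of the overlap cannot be told apart.

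Next came AstC-R2, a receptor for allatostatin C and a relative of the somatostatin receptors of vertebrates. AstC-R2 (3L:18485137-18502557, minus strand) was at 260 and 304 CPM in neurons of starvation replicates, against 247, 227 and 214 in normal ones. Its mean of 250 ± 34.6 did not differ from that of SPR beyond their spread, while every replicate of both lay above every replicate of the remaining 36 genes. A UMI of AstC-R2 was found in 45.1% of neurons (median 7436 UMIs per cell) and in 4 of 47 hemocytes or 8.51% (median 5150 UMIs), blood cells that serve as a background. Of the 47 hemocytes, 26 carried a shared barcode, and shares of cells were not computed without them. In Kenyon cells the level was only 28.0 ± 12.6 (n = 4), so the 2 most abundant receptors differed in their distribution: SPR was high in Kenyon cells and AstC-R2 was low there. SPR and AstC-R2 together made up 37.8% of the summed receptor level of neurons.

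AstA-R1, a galanin receptor-like receptor for allatostatin A, was at 85.0 and 98.1 in starvation and at 113, 99.4 and 74.6 in normal neurons. CCAP-R, the receptor for crustacean cardioactive peptide, which in insects acts in ecdysis, was at 91.3 and 103 in starvation, against 86.9, 71.8 and 63.7 in normal neurons. Dh44-R1, one of 2 receptors for the corticotropin-releasing factor-like peptide Dh44, was at 62.9 and 48.2 in starvation, against 98.7, 86.6 and 53.4 in normal neurons. The conditions overlapped for AstA-R1 and Dh44-R1, and the starvation replicates lay above all normal ones for CCAP-R. FMRFaR (66.3 ± 10.2), the receptor for FMRFamide peptides, and sNPF-R (56.2 ± 11.6), the receptor for short neuropeptide F, completed the 7 genes above 50. The 5 highest genes carried 54.9% of the summed level.

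A further 13 genes lay between 20 and 50 CPM in neurons, and 13 between 5 and 20. Only 5 stayed below 5: Proc-R, AstC-R1, PK1-R, Lgr1 and AkhR. Of these, AkhR, the adipokinetic hormone receptor known from the fat body, had 9 UMIs in all 8696 cells, AstC-R1 had 20, PK1-R, a pyrokinin receptor, had 30 and Lgr1, the glycoprotein hormone receptor, had 54. At this depth no pattern across classes can be read from these 4 genes.

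Paralogous or closely related receptors were set side by side in 10 pairs. In 5 of them the neuronal replicates of the pair did not overlap. The allatostatin A receptors averaged 94.0 ± 14.8 (AstA-R1) and 7.89 ± 5.04 (AstA-R2) CPM in neurons. AstA-R2 was at 6.55 and 3.88 in starvation and at 15.8, 9.61 and 3.62 in normal neurons. The difference was wider for the allatostatin C receptors, because AstC-R1 was at 0.690 and 0 in starvation and at 3.95, 0.158 and 0.763 in normal neurons. The Dh44 receptors averaged 70.0 ± 21.8 (Dh44-R1) and 20.1 ± 3.12 (Dh44-R2). Of the receptors for sulfakinin, the cholecystokinin-like peptide of insects, CCKLR-17D3 was at 37.6 and 38.8 in starvation and at 50.01, 50.3 and 29.0 in normal neurons. CCKLR-17D1 was at 9.87 and 10.0 in starvation and at 18.4, 12.6 and 9.92 in normal neurons. In each of these families 1 receptor was above the other in every neuronal replicate. Dh31-R, the receptor for the calcitonin-like peptide Dh31, averaged 47.9 ± 10.3, and its relative hec averaged 11.9 ± 3.40.

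In the other 5 pairs the neuronal ranges overlapped. The CCHamide receptors were alike: CCHa2-R was at 36.6 and 25.6 in starvation and at 44.7, 38.1 and 21.6 in normal neurons, and CCHa1-R at 28.8 and 27.5 in starvation and at 35.5, 35.6 and 19.5 in normal neurons. CCHamides are relatives of bombesin, and CCHa2 is known as a signal to the insulin-producing cells. Within the myosuppressin receptors, MsR1 was at 26.7 and 19.1 in starvation and at 29.0, 30.9 and 13.5 in normal neurons. MsR2 was at 12.8 and 9.39 in starvation and at 27.6, 15.3 and 10.1 in normal neurons. Hugin pyrokinins, which reduce feeding in larvae, have a pair of receptors of which PK2-R1 was the more variable. It was at 29.8 and 18.1 in starvation and at 22.4, 39.9 and 8.01 in normal neurons, and PK2-R2 was at 9.73 and 13.3 in starvation and at 3.95, 7.88 and 10.3 in normal neurons. Both tachykinin-family receptors were found. TkR86C, the natalisin receptor, was at 28.4 and 24.3 in starvation and at 18.4, 27.6 and 15.8 in normal neurons, and TkR99D, the tachykinin receptor, was even across replicates, at 15.0 ± 1.23. Among the leucine-rich repeat receptors, Lgr4 was at 8.97 and 6.47 in starvation and at 13.2, 8.82 and 7.82 in normal neurons. Lgr3, the receptor of the relaxin-like peptide Ilp8, was at 5.86 and 7.44 in starvation and at 9.21, 8.82 and 4.39 in normal neurons.

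Some receptors are for peptides known from feeding and metabolism. NPFR, the receptor of the neuropeptide Y homologue NPF, was at 50.9 and 50.2 CPM in starvation and at 47.4, 49.8 and 25.4 in normal neurons. sNPF-R was at 65.3 and 60.5 in starvation and at 55.3, 63.3 and 36.6 in normal neurons. For both, Normal C, the replicate with the deepest cells, was the low one. This was not particular to NPFR and sNPF-R. The receptor sum of neurons was 1109 CPM in Normal C, against 1596 and 1539 in Normal A and B and 1460 and 1497 in starvation. Lkr, the leucokinin receptor, was at 21.7 and 16.8 in starvation, against 25.0, 29.5 and 17.7 in normal neurons. CrzR, the corazonin receptor, was at 25.5 and 21.0 in starvation, against 15.8, 24.4 and 17.7 in normal neurons. SIFaR, the SIFamide receptor, was low, at 11.0 and 6.15 in starvation and at 3.95, 6.30 and 8.01 in normal neurons. Of these 5 genes, NPFR alone had both starvation replicates above all normal ones in neurons, by a gap smaller than 1 SD of the normal replicates.

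Kenyon cells, the intrinsic neurons of the mushroom body that store odor memories, had a lower receptor sum than neurons, with a UMI of 34 of the 38 genes. In 17 of the 38 genes every neuronal replicate was above every Kenyon cell replicate, and in 2, hec and SPR, the reverse held, for SPR by a margin far below its spread. The shares of all genes that meet these rules were not computed. Kenyon cells held 70949 to 698907 UMIs per replicate, against 759828 to 14493183 in neurons. CCKLR-17D1 was also highest in Kenyon cells, at 27.3 ± 12.8 CPM (n = 4), but overlapped the next class. The gene hec (hector; X:12950436-12957462, minus strand) encodes a class B receptor related to the calcitonin receptor and is known for a role in male courtship. Its level in Kenyon cells was 120 and 117 CPM in starvation, against 56.4 and 137 in Normal A and B, and too few Kenyon cells came from Normal C. In Gad1-led neurons, the next class, hec was at 12.9 ± 4.45, and its mean in Kenyon cells, 108 ± 35.4 (n = 4), was 8.35 times that level. It was 108 ± 36.1 without the cells of shared barcodes. A hec UMI was found in 38.96% of Kenyon cells (median 5407 UMIs) and in 6.92% of neurons (median 7436 UMIs), so the deeper cells had the lower share. No hemocyte and 1 of 122 muscle cells had one. Dh31-R had its highest class in Vmat-led neurons, with 54.8 and 69.6 in starvation and 67.4, 114 and 119 in normal replicates. Of the 7 genes above 50 CPM in neurons, AstA-R1, CCAP-R, Dh44-R1, FMRFaR and sNPF-R averaged between 1.42 (CCAP-R) and 7.42 (FMRFaR) CPM in Kenyon cells, whereas AstC-R2 was at 28.0 and SPR at 424.

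In VGlut-led neurons the receptor sum was 1707 ± 284 CPM, and it was highest in a cluster of 157 cells within that class. Among the leading genes of this cluster were Rfx, NPF, CCHa1, Pburs and TrpA1. Its peptide-rich markers had a mean log2 fold of 0.991 over other cells, just under the 1 required to name a cluster peptide-rich. The other VGlut-led cluster, of 473 cells, had a receptor sum of 1545 ± 202 (n = 5), so the class mean leans on this borderline cluster. Its receptor sum was 2422 and 2435 in starvation and 2688 in Normal B, the replicates with at least 10 of its cells. By the level pooled over replicates it was the highest of all 41 clusters for 9 of the 38 receptor genes, among them SPR (566 ± 116, n = 3), AstC-R2 (442 ± 48.2), AstA-R1 (161 ± 31.4), NPFR (111 ± 17.1) and Lkr (73.2 ± 21.6). The share of all genes that were highest in this cluster was not computed, so the count has no background to be judged against. An unnamed cluster of 683 cells with Pdf and Akh among its leading genes varied most, with a receptor sum of 790 and 2020 CPM in starvation and of 2169 and 3085 in Normal A and B.

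Counting different receptors in a cell gives another measure. Each cell was thinned to 1000 UMIs, so that deep and shallow cells can be compared. Neurons then showed 1.27 and 1.21 different receptor genes per cell in starvation and 1.398, 1.23 and 0.967 in normal replicates, a mean of 1.21 ± 0.16 (n = 5). Peptide-rich neurons had 1.63 ± 0.54, with 1.14 and 1.25 in starvation and 2.35, 2.05 and 1.35 in normal replicates. Normal A and B rest on only 17 and 19 peptide-rich cells, and the 2 clusters of that class were mixed in unequal parts, the insulin and Eh cluster giving 52.4% and 50% of the cells in starvation and 82.4%, 36.8% and 25.9% in normal replicates. Their part in the difference was not tested. Kenyon cells had 0.623 ± 0.157, undifferentiated neurons 0.383 ± 0.098, glia 0.273 ± 0.105 and neural progenitors 0.116 ± 0.089 receptor genes per cell. The count depends on depth: without thinning, neurons had 4.68 ± 0.87 receptor genes per cell, 97.0% had at least 1, 52.6% at least 5 and 4.27% at least 10.

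**Figure D2:**
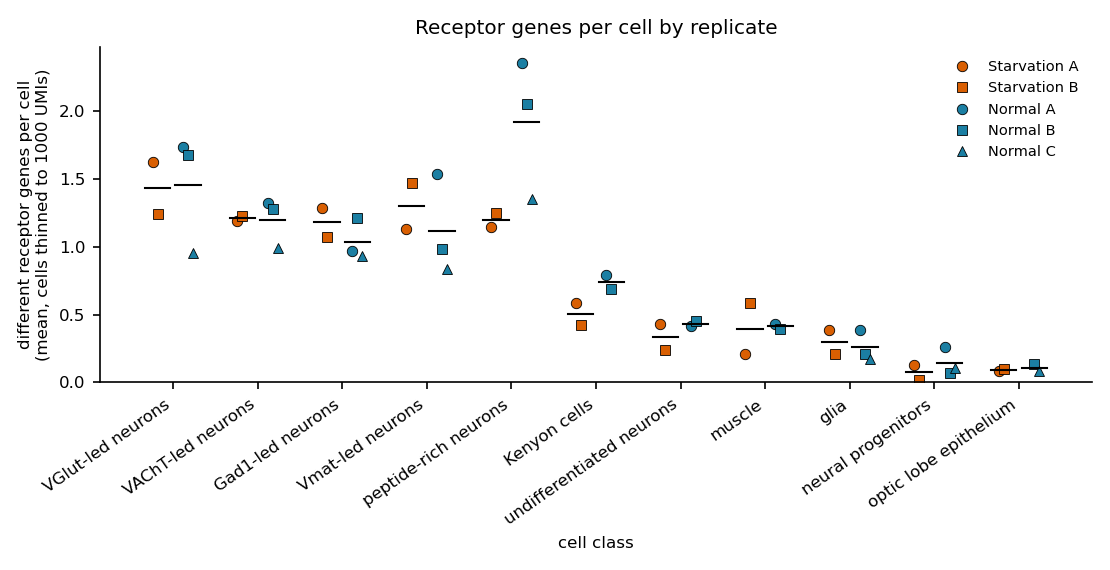
Number of different receptor genes with a UMI per cell, averaged over the cells of each replicate after every cell was thinned to 1000 UMIs (points, starvation left of normal; bars, means of each condition). Neuronal classes lie near or above 1 and Kenyon cells, undifferentiated neurons, glia and progenitors lie below 0.8, and peptide-rich neurons of Normal A and B are the highest points, at 2.35 and 2.05.

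Cells that make 1 neuropeptide were then picked by the level of its precursor alone, to see which receptors they carried. Intervals are exact binomial 95% intervals and cover counting error only. Where no cell had a UMI, the limit given is 3 cells of the number examined, and it bears on cells with a UMI and not on cells that express the gene. Numbers of cells are small, and cells of 1 replicate are not independent samples. Levels in peptide cells are pooled over the cells, whereas the neuronal means beside them are means over replicates. Between 0 and 5 cells of each peptide carried a shared barcode, and without them CCHa2-R in insulin-producing cells was at 94.8, AstA-R2 in Hug cells at 151 and CNMaR in leucokinin cells at 295 CPM.

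Insulin-producing cells were found as 44 cells with high Ilp2 (median 16882 UMIs). AstC-R2 was detected in 38 and SPR in 37 of them, but at 261 and 295 CPM, close to the level of all neurons. CCHa2-R stood out with 28 of 44 cells (63.6%, 47.8% to 77.6%) and 97.6 CPM, 2.93 times its neuronal mean. Of its 28 cells, 10 and 1 were from Starvation A and B and 2 and 15 from Normal B and C. PK2-R2 and AstA-R2 were each found in 12 cells, at 3.41 and 3.39 times the neuronal mean.

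Cells with high Pdf, the peptide of the clock neurons, numbered 11 (2 from Starvation A, 3 from Normal A and 6 from Normal B), and 10 of them lay in an unnamed cluster. Pdfr (X:2552206-2578640, plus strand), the class B receptor for this peptide, was detected in 10 of the 11 cells (90.9%, 58.7% to 99.8%), against 2.21% of all other cells. Its level pooled over the 11 cells was 3267 CPM, with 1091 in Normal A and 2842 in Normal B, the replicates with at least 3 such cells. The mean of these replicates was 1966.5 ± 1237 (n = 2). The pooled level lies above both, so it was raised by the 2 cells of Starvation A. The mean over neuronal replicates was 8.43 ± 4.96, and the 11 cells held 126 of the 767 Pdfr UMIs of the whole set. The cells were shallow, with a median of 3096 UMIs. AstC-R2 was also found in 10 of the 11, at 2800 CPM, 11.2 times its neuronal mean. SPR, common elsewhere, was detected in 2 of the 11 Pdf cells. The unnamed cluster that held most of them had 683 cells and was led by Pdf itself, with Akh and Pdfr among its leading genes.

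Cells with high Hug, the hugin precursor, numbered 28, and SPR was detected in 24 of them (85.7%, 67.3% to 96.0%) at 869 CPM. AstA-R2 was detected in 16 (57.1%, 37.2% to 75.5%) at 149 CPM, 18.9 times its neuronal mean, with cells from all 5 replicates. The hugin receptors themselves were found in 2 (PK2-R1) and 1 (PK2-R2) of the 28 cells. Among 12 cells with high Dh44, Lgr4 was detected in 9 (75.0%, 42.8% to 94.5%), at 161 CPM and 17.8 times the neuronal mean, and its cells came from 4 replicates. AstA-R2 (7 cells) and TkR99D (6 cells) were at 10.7 and 6.78 times their neuronal means in those Dh44 cells, whereas the Dh44 receptors were found in 3 (Dh44-R1) and 1 (Dh44-R2).

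The 9 SIFamide cells were marked by sNPF-R and CCHa2-R, each in 7 cells, at 10.1 and 9.76 times their neuronal means, and by CapaR, the receptor for capability peptides, in 5 cells at 18.1 times. No SPR UMI was found in the 9 SIFamide cells, which allows a share of cells with a UMI of up to 33.3%, too close to the 35.5% of all other cells to tell them apart. The 8 cells with high Ptth, the hormone that drives ecdysone release, had CCAP-R and CNMaR (the CNMamide receptor) in 6 cells each and MsR1 in 5, at 4.28, 6.39 and 8.87 times the neuronal means. No Pdfr UMI was seen in the 8 Ptth cells, which allows a share of cells with a UMI of up to 37.5%. Of 21 leucokinin cells, 7 had CNMaR, at 320 CPM, and 8 had NPFR.

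Cells of Pdf, NPF, corazonin, leucokinin, SIFamide, Akh, Hug and Dh44 could be asked for their own receptors. Pdf cells (10 of 11 with Pdfr) and NPF cells (5 of 6 with NPFR, at 314 CPM) had theirs in most cells. No UMI was found of CrzR in 17 corazonin cells, of Lkr in 21 leucokinin cells, of SIFaR in 9 SIFamide cells or of AkhR in 5 Akh cells, which allows shares of cells with a UMI of up to 17.6%, 14.3%, 33.3% and 60.0%. The limits lie above the shares in all other cells for CrzR (7.96%), Lkr (7.26%), SIFaR (3.04%) and AkhR (0.104%), so a lower share in the peptide cells was not detectable at this depth.

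**Figure D3:**
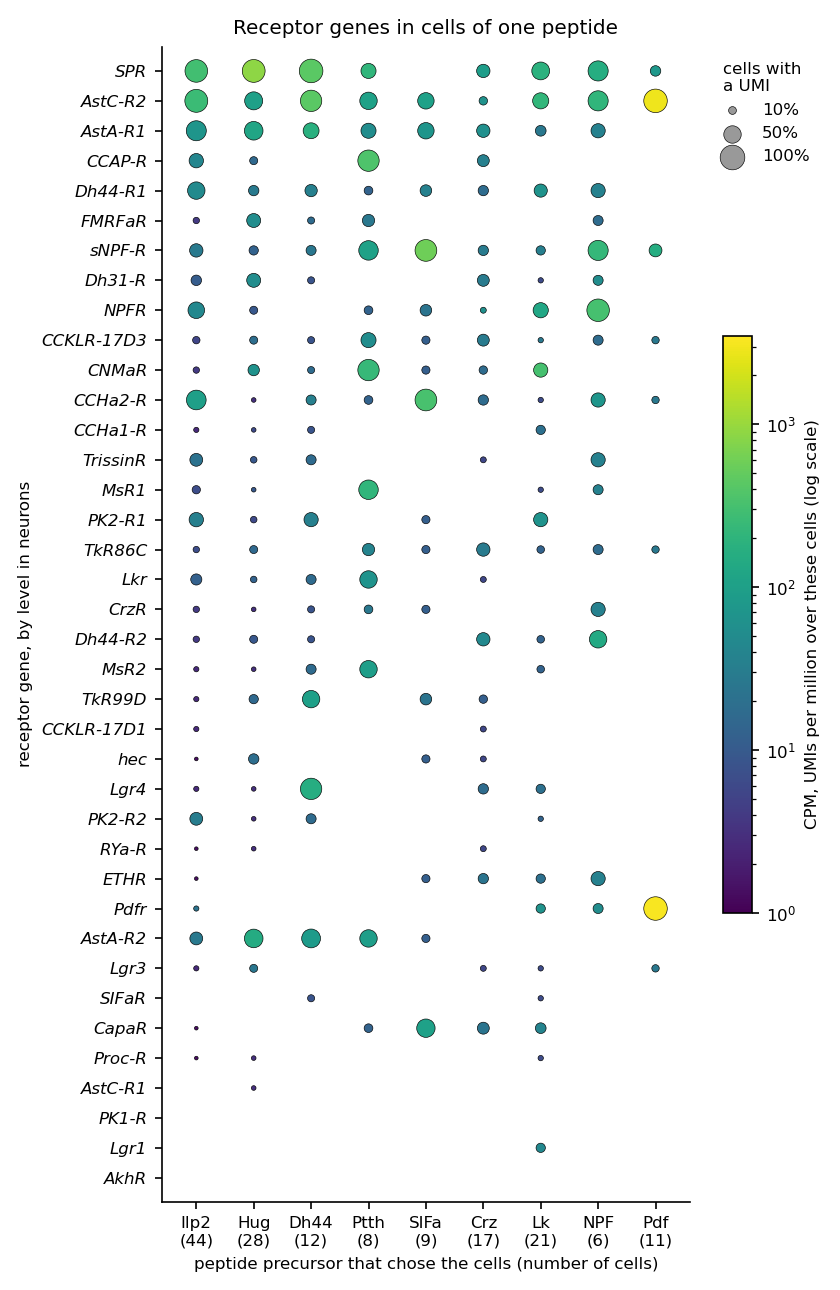
Receptor genes (rows) in cells chosen by 1 peptide precursor (columns, number of cells in parentheses). Point area gives the share of cells with a UMI. Colour gives the level in CPM, pooled over the cells of all replicates, on a logarithmic scale. Pdfr and AstC-R2 in Pdf cells, at 3267 and 2800 CPM, are the brightest points, and Lgr4 in Dh44 cells, AstA-R2 in Hug cells and CapaR in SIFa cells stand out from their rows.

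The genes with their highest level outside neurons were few. Proc-R (X:4707916-4729487, plus strand), the receptor for the small peptide proctolin, was the only one in which every glial replicate lay above every neuronal one. In cortex glia, which wrap neuronal cell bodies, Proc-R was at 120 and 102 CPM in starvation and at 173, 213 and 135 in normal replicates, so the starvation replicates were the lower ones. Its level was 138 ± 45.0 in glia without a named subtype, 5.03 ± 6.02 in surface glia and 3.13 ± 2.85 in neurons. A Proc-R UMI was found in 49.0% of cortex glia cells (median 4404 UMIs) and 1.85% of neurons (median 7436 UMIs), beside 3 of 47 hemocytes. Without the cells of shared barcodes, Proc-R averaged 132 ± 30.1 and Dh44-R2 94.9 ± 41.5 in cortex glia (n = 4). With them Dh44-R2 averaged 85.8 ± 40.8 in cortex glia (n = 5), 21.7 ± 19.7 in glia without a subtype, 9.36 ± 6.87 in surface glia and 20.1 ± 3.12 in neurons. In the smaller cortex glia cluster, of 55 cells with a median of 18382 UMIs, Dh44-R2 and Proc-R were each detected in 81.8% of cells. CrzR in surface glia was at 47.0 and 24.0 in starvation, against 12.3 and 40.0 in Normal B and C, so the conditions overlapped.

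AstA-R2 was highest in the muscle cells left on the tissue, at 143 and 191 CPM in starvation and at 37.7 and 35.5 in Normal A and B. These values rest on 72 UMIs in 21 of 122 cells, and no fit was made for this class, so the difference was not tested. The class was not equally pure: its 8 muscle markers summed to 42676 and 27874 CPM in starvation and to 12659 and 24194 in Normal A and B, with none at 0. The 7 neuronal markers summed to 1428 and 1554 CPM in starvation and to 3396 and 1313 in Normal A and B, and the 6 astrocyte markers to 559 and 587 in starvation and to 2905 and 586 in Normal A and B. Their part in the AstA-R2 values was not tested. In peptide-rich neurons AstA-R2 averaged 71.7 ± 91.6, a mean that rests on Normal A (234 CPM) and was 31.1 without it. ETHR, the receptor of ecdysis-triggering hormone, averaged 58.7 ± 62.0 in the same class, and 32.3 without Normal A.

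Whether starvation changed these receptor transcripts was tested on counts summed per replicate in each class, with the quasi-likelihood test of edgeR over all genes and adjusted p-values. In neurons 34 of the 38 genes passed the filter on low counts and none was called at an adjusted p under 0.05. No gene of any kind was called in neurons (0% of 7838 tested). At an unadjusted p under 0.05 there were also 0 receptor genes by edgeR, against 7.45% of all genes tested, and DESeq2 called none of them (0.893% of all genes). The fitted log2 fold changes lay between -0.94 (Proc-R) and 0.50 (ETHR), 31 of 34 within 0.5 of zero, with standard errors of 0.20 to 0.88. For the abundant genes the precision was fair: SPR changed by 0.15 ± 0.23, AstC-R2 by 0.33 ± 0.21 and CCAP-R by 0.43 ± 0.20 (log2 fold change ± SE, smallest adjusted p in the class 0.684, for CCAP-R). The median over the 34 receptor genes was -0.02, beside 0.01 over all genes.

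**Figure D4:**
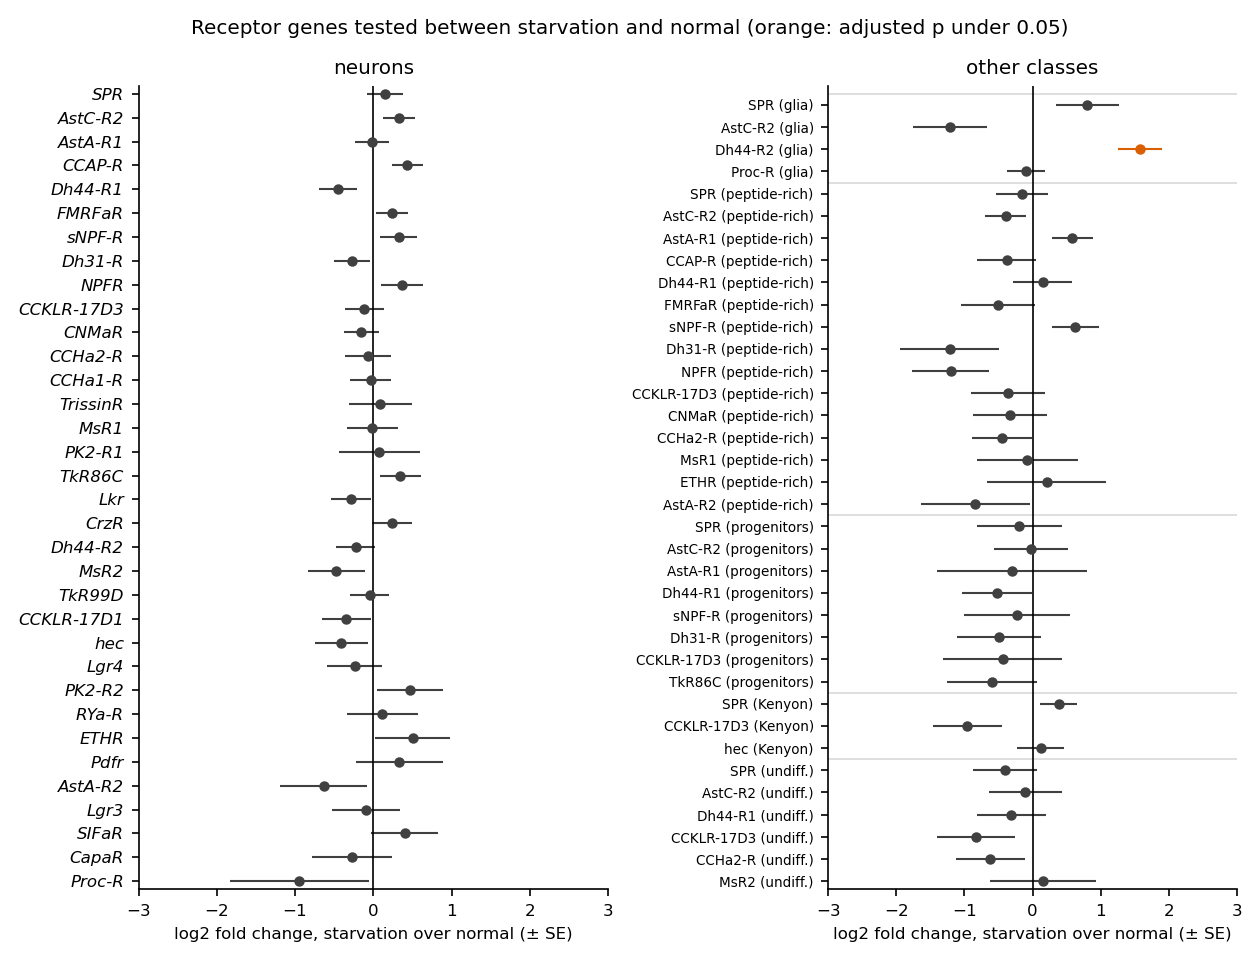
Log2 fold change of starvation over normal with its standard error, for the receptor genes that passed the count filter in neurons (left) and in 5 other classes (right). In neurons 31 of 34 points lie within 0.5 of zero, and the orange point, Dh44-R2 in glia at 1.58, is the only one with an adjusted p under 0.05.

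Dividing neurons by transmitter left no receptor gene called either. Of all genes tested, 0% were called in the VGlut-led, VAChT-led and Gad1-led neurons and 0.0248% in the Vmat-led neurons, and DESeq2 called no receptor gene in any of them (0.477% of all genes in the VGlut-led, 0.561% in the VAChT-led, 0.253% in the Gad1-led and 0.273% in the Vmat-led neurons). Those with an unadjusted p under 0.05 in edgeR were few. In VGlut-led neurons they were 2 of 22 (7.32% of all genes): CCHa2-R, at 62.6 and 43.2 CPM in starvation against 18.7, 37.6 and 19.3 in normal replicates, and CNMaR, at 50.2 and 80.5 in starvation against 46.8, 39.6 and 15.5. Both starvation replicates were above all normal ones, and the log2 fold changes were 0.87 ± 0.37 and 0.91 ± 0.40. For CNMaR the sign depended on how neurons were grouped. It was -0.49 when each cell was assigned by its own strongest transmitter gene.

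AstC-R2 was the 1 of 33 in VAChT-led neurons (7.38% of all genes), at 245 and 339 in starvation against 159, 225 and 187 in normal replicates (log2 fold change 0.62 ± 0.27). Dh31-R was the 1 of 24 in Gad1-led neurons (6.19% of all genes), lower at 29.97 and 18.4 in starvation against 51.3, 62.1 and 38.4 in normal replicates (-0.94 ± 0.36). In Vmat-led neurons CCAP-R (0.88 ± 0.40) and Dh31-R (-0.73 ± 0.34) were the 2 of 16 (7.92% of all genes). None of these 6 values held after adjustment, where the smallest adjusted p was 0.627 in edgeR.

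No receptor gene was called in peptide-rich neurons (0 of 15 tested, 0.0803% of all genes), Kenyon cells (0 of 3, 0%), undifferentiated neurons (0 of 6, 0.019%), neural progenitors (0 of 8, 2.01%) or all cells together (0 of 35, 0%) by edgeR. None had an unadjusted p under 0.05 by edgeR in these 5 classes, where the share of all genes was 10.1% in peptide-rich neurons, 7.41% in Kenyon cells, 7.24% in undifferentiated neurons, 17.8% in neural progenitors and 10.1% in all cells. DESeq2 called none of them either, and of all genes 0.776%, 0%, 0.0381%, 3.42% and 2.37% in the same order. The number tested shows how little of the list these classes can address. In peptide-rich neurons the fits left wide errors, with log2 fold changes between -1.22 (Dh31-R) and 0.63 (sNPF-R) and a median SE of 0.54. Without the filter on low counts Pdfr was called there (log2 fold change 2.03, edgeR adjusted p = 0.0273), as were 126 of all 10155 genes (1.24%). Its values were 76.8 and 0 CPM in starvation against 0, 25.3 and 7.88 in normal replicates, ranges that overlap.

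Dh44-R2 in glia was the only receptor gene to pass, among 4 tested there, where 2.17% of all genes were called by edgeR and 3.12% by DESeq2. It was at 77.9 and 54.97 CPM in starvation glia and at 34.6, 20.2 and 25.6 in normal glia. Both starvation replicates lay above all normal ones, with a log2 fold change of 1.58 ± 0.33 and an adjusted p = 0.0409 in edgeR and 0.0448 in DESeq2. Dh44-R2 did not move that way in neurons, at 16.1 and 20.4 in starvation against 22.4, 23.8 and 18.1 in normal replicates (-0.22 ± 0.25). The difference between the effect in glia and that in neurons was 1.86 ± 0.42 on the log2 scale. Its p was 0.000687, but the adjusted p of 0.687 over all genes in edgeR missed the threshold. Of all genes, 0% passed that test and 4.83% had an unadjusted p under 0.05.

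The call for Dh44-R2 in glia was at the edge. It was lost without Starvation A (adjusted p = 0.297), Starvation B (0.0920), Normal A (0.0949) or Normal C (0.143) in edgeR, with log2 fold changes of 1.36 to 1.70, and it was kept without Normal B (0.0393) and without the cells of shared barcodes (0.0374). Scaling matters as well, since with library totals in place of TMM the log2 fold change was 1.32 and the adjusted p 0.0739, and the median of all glial genes moved by -0.26. In cortex glia alone, where the transcript is concentrated, the values were 149 and 102 in starvation against 74.8, 50.2 and 53.4 in normal replicates, with a log2 fold change of 1.35 ± 0.38 and an adjusted p of 0.0765.

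The make-up of the glia differed between replicates beside this result. Cortex glia were 46.8% and 42.9% of the glia in starvation and 39.8%, 34.2% and 34.8% in normal replicates. Surface glia, where Dh44-R2 was low, were 15.5% and 17.5% in starvation and 8.74%, 31.6% and 30.4% in normal replicates. Astrocyte/neuropil glia were 10.8% and 6.35% in starvation and 33.0%, 5.26% and 10.9% in normal replicates. The median depth of glial cells was 6352 and 3128 UMIs in starvation and 1596, 1980 and 19482 in normal replicates. The 4 heat shock markers summed to 20.6 and 31.1 CPM in starvation glia and to 587, 128 and 233 in normal glia. The 7 neuronal markers summed to 1087 and 887 in starvation and 1424, 1029 and 1330 in normal glia, with none of them at 0 in any replicate. The part of these differences in the value of Dh44-R2 was not tested, apart from the cortex glia fit and a fit without stress, mitochondrial and ribosomal genes, where the log2 fold change was 1.54 and the adjusted p 0.0439.

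**Figure D5:**
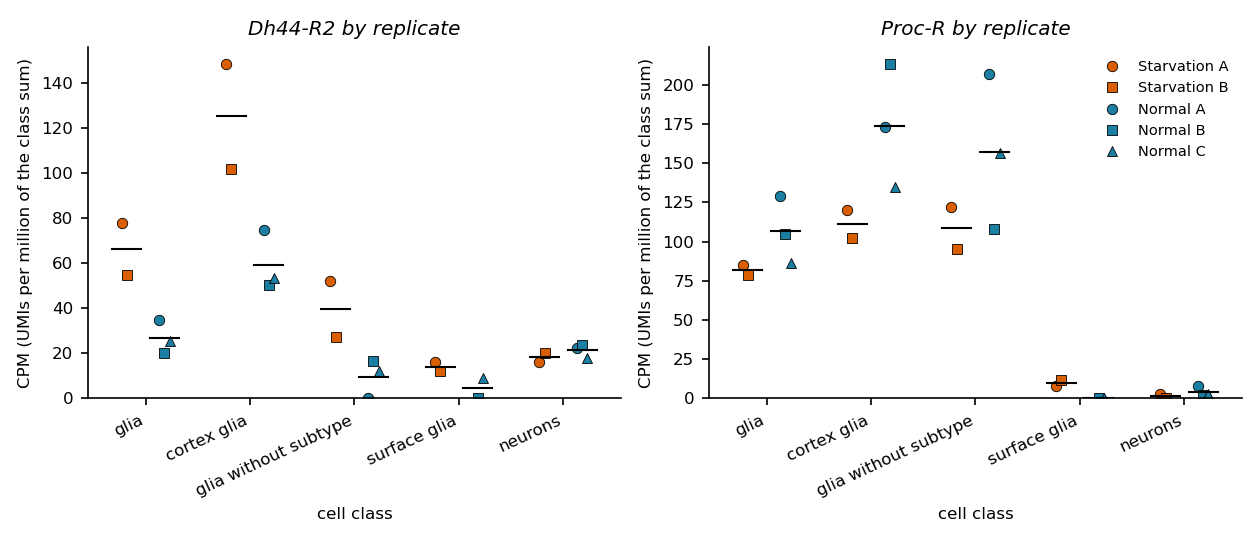
Dh44-R2 (left) and Proc-R (right) in CPM of the class sum, for each replicate of starvation (orange) and normal (blue) brains in glia, in 3 glial subtypes and in neurons; bars are means of each condition. Dh44-R2 in cortex glia is at 149 and 102 in starvation and between 50.2 and 74.8 in normal replicates, while Proc-R is at 120 and 102 against 135 to 213.

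The other 3 receptor genes tested in glia did not pass. Proc-R was at 84.9 and 78.9 in starvation against 129, 105 and 86.2 in normal glia, with a log2 fold change of -0.10 ± 0.27 after TMM and -0.36 with library totals. Both starvation replicates were below all normal ones on the plain scale, a gap that TMM scaling nearly removed. SPR (0.81 ± 0.46) and AstC-R2 (-1.21 ± 0.54) had adjusted p-values of 0.388 and 0.261 in edgeR.

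The wider pathway was read from 3 lists: 38 peptide ligand genes, 25 genes of G protein signalling (23 found) and 9 of peptide processing. In neurons 0 of 32 tested ligands, 0 of 20 signalling genes and 0 of 8 processing genes were called by edgeR. By unadjusted p under 0.05 the ligands had 13 of 32, with a median log2 fold change of -0.51, and the other lists none, with medians of 0.08 and 0.07, beside 7.45% and 0.01 over all genes. The sign of the ligand median was not the same in all classes. In peptide-rich neurons it was 0.58, with 12 of 29 ligands at an unadjusted p under 0.05 in edgeR (10.1% of all genes) and none called. It was -0.59 in glia, -0.66 in undifferentiated neurons, -0.84 in neural progenitors and 0.08 in Kenyon cells. The ligand genes with the smallest p in neurons were Pdf (12.2 and 8.09 CPM in starvation against 46.1, 36.7 and 29.2 in normal replicates) and AstCC, and their adjusted p was 0.169. In glia 2 of 25 tested ligand genes were called (2.17% of all genes), both lower in starvation, and no gene of the other lists. These were NPF, at 5.31 and 7.17 in starvation against 117, 33.7 and 51.1 in normal glia (-3.31 ± 0.58, edgeR adjusted p = 0.0238), and Ptth, at 2.32 and 0 in starvation against 25.0, 13.5 and 31.3 (-3.38 ± 0.66, adjusted p = 0.0342). Both are peptides of neurons.

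The 38 genes are spread over the genome, with 2 on 2L, 5 on 2R, 10 on 3L, 13 on 3R and 8 on X. For 6 of them, AstA-R1, CCKLR-17D1, ETHR, RYa-R, SPR and TrissinR, another annotated feature overlaps on the same strand, so that their counts may hold tags of it.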

How the data were processed

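Brains of starved and normal first instar larvae were profiled by droplet 3' RNA sequencing. Per the labels and the study's methods, the authors ran Cell Ranger 2.2.0 against FlyBase r6.22 (BDGP6 assembly) and deposited raw UMI counts per gene and cell, without normalization, over 17493 genes. The methods and labels name different kit versions. The methods name 2 starvation and 3 normal biological replicates. The 7 libraries were linked to these 5 through the cell numbers and medians in the study's sequencing metrics, an inference from values. The p-values measure the spread between these 5 sums.

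Cells with more than 200 and fewer than 4500 genes and under 20% mitochondrial UMIs were kept and clustered with Seurat 5.3.0 (2000 variable genes without the 38 receptor genes, conditions integrated over 30 dimensions, 31 components, resolution 2, 41 clusters). Clusters were named from listed markers, with thresholds set after the clusters were seen (at least 3 markers in 25% of cells, mean log2 fold over other cells at least 0.4 and a lead of 0.3). Doublets were kept: Scrublet in scanpy 1.11.5 called 0.471% of cells and was not relied on.

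Sums of UMI counts over the cells of a class in each replicate were tested with edgeR 4.0.16 (TMM, filterByExpr, quasi-likelihood, Benjamini-Hochberg over all genes, 0.05), and with DESeq2 1.42.0 as an alternative. Positive log2 fold changes mean higher in starvation. Standard errors of edgeR values were back-calculated as the absolute log2 fold change over the square root of the quasi-likelihood F statistic. Peptide cells were those with log-normalized Ilp2, Pdf, Akh, Hug, Lk, SIFa, Dh44 or NPF over 4, Ptth over 3 or Crz over 6. Values by replicate are given for receptor genes called or with an unadjusted p under 0.05, the 5 highest in neurons, those highest in other classes, paralog pairs and receptors of peptides the study names. The fits of glia and of neurons were also run on simulated counts, and the glia minus neurons difference at a small spread only. The other classes were not simulated, and no result here rests on these runs. Alternatives covered the tool, filter, scaling, replicates, shared barcodes and high doublet scores. Deposited aggregated tables held the same counts as the single libraries and were not used further. Members, gene lists and tests were chosen with earlier results of these data known. Genes singled out within clusters or peptide cells were chosen after their values were seen. Gene positions come from the Ensembl BDGP6.54 annotation, and all 38 genes were matched.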

Additional observations from a re-analysis of the deposited data

How the results depend on the processing

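Among classes, the count of receptor genes called in glia (1) became 0 with library totals in place of TMM, with the replicate number of the labels as a block, in cortex glia alone and in glia without cortex glia, and ranged between 0 and 1 when each replicate was left out. In peptide-rich neurons it became 1 without the filter on low counts, and in the other classes it was 0 under every alternative run. The numbers do not pair the samples: deviations of same-numbered libraries correlated at 0.04, 0.21 and -0.15, and with the block the log2 fold change of Dh44-R2 in glia was 1.60 (edgeR adjusted p = 0.0648). The log2 fold change of CNMaR in VGlut-led neurons was -0.49 with neurons grouped cell by cell. Receptor genes per neuron were 4.68 unthinned and 2.12 at 2000 UMIs. The number highest in a neuronal class was 33 to 35, and all 183 alternatives for single levels stayed within 1 SD. Most of these left out 1 replicate, which cannot move a mean by 1 SD, so they could not fail. Those that could were the 27 levels without shared-barcode cells and the 27 with the receptor genes among the variable genes. Counts over all genes moved more: DESeq2 called 216 genes in all cells and 70 in neurons, where edgeR called 0, and the fit without a filter on low counts called 169 and 233. In glia 93 genes were called, 134 by DESeq2, 390 without the filter, 454 with 7 libraries as separate samples and 1 to 206 with 1 replicate left out. In neural progenitors the counts were 143 by edgeR, 243 by DESeq2, 522 without the filter, 1010 with 7 libraries, 0 with library totals and 0 to 364 with 1 replicate left out. In the VGlut-led, VAChT-led and Gad1-led neurons, where edgeR called 0, DESeq2 called 23, 41 and 13, and the fit without the filter 71, 168 and 87. In Vmat-led, peptide-rich and undifferentiated neurons edgeR called 1, 3 and 1, DESeq2 11, 29 and 2, and the fit without the filter 74, 126 and 19. In Kenyon cells edgeR and DESeq2 called 0 and the fit without the filter 21. With 7 libraries as separate samples the counts were 432 in all cells and 163 in neurons, and with the replicate block 55 and 97. Library totals moved the median of all genes by -0.26 in glia, -0.24 in neural progenitors, -0.15 in undifferentiated neurons and -0.11 in peptide-rich neurons. With the receptor genes allowed among the variable genes, muscle had 205 cells, peptide-rich neurons 356 (162 in both) and neural progenitors 667. Where 1 starvation replicate remained, its spread was taken from the normal ones. Depth limits receptors below 5 CPM, and in the smaller classes few members passed the filter (1 of them in glia without cortex glia). The alternatives with library totals, cortex glia, stress genes and added clusters were chosen after seeing the data.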
